A study of Caenorhabditis elegans with 14 samples.

Results

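The lysozyme genes *lys-1* to *lys-10* of *C. elegans* were followed in whole-animal mRNA of the *mir-60;spe-9* double mutant and its *spe-9* control. Members were taken by gene symbol from the deposited expression values, which gave 10 genes of the 41560 gene symbols listed, with 1 RefSeq transcript each. Lysozymes cut the peptidoglycan of bacterial cell walls. In *C. elegans*, which feeds on bacteria, the *lys* genes resemble the lysozymes of amoebae, a second family (*ilys*) is of the invertebrate type, and many are expressed in the intestine. There they are thought to serve both digestion and defence, and several, *lys-1*, *lys-7* and *lys-8* among them, are widely used as readouts of innate immunity. miR-60 is a microRNA of the intestine.

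Both strains carry *spe-9*(*hc88*), a temperature-sensitive mutation that leaves the sperm unable to fertilize, and the double mutant also carries the deletion *mir-60*(*n4947*). Animals grew on *E. coli* OP50 at 23.5 °C, and at Day 0, as untreated young adults, each strain gave 2 libraries from separate RNA preparations. Afterwards they were kept on 5 mM paraquat, a source of superoxide, with 325 µM FUDR, which blocks progeny, and gave a single library per strain at Day 7 and, for the double mutant (called the mutant here), another at Day 10. The Day 10 library has no *spe-9* counterpart, and the later ages differ from Day 0 in age, paraquat and FUDR at once, so these cannot be told apart. The study chose Day 7 and Day 10 near the median survival of *spe-9* and of the double mutant on paraquat. At Day 7 the strains thus stood at different points of their survival, which cannot be told apart from the strain. The smallest steps between the deposited values put the depth of the 7 libraries at about 49500000 to 62400000 reads. The *mir-60* entry was listed at 0 in every library and *spe-9* stayed at or under 0.122 FPKM, so neither gene checks the strain labels. All 8 intestinal markers examined were above 0 in every group. Their summed level was 1117 and 1178 FPKM in the *spe-9* libraries and 1331 and 1503 FPKM in the mutant libraries of Day 0, then 4979 FPKM in *spe-9* and 5737 FPKM in the mutant at Day 7 and 10383 FPKM at Day 10. This sum does not stand for each gene in it. The marker *elt-2* went the other way, from 3.73 and 2.44 FPKM at Day 0 to 1.86 FPKM at Day 7 in *spe-9*. In the mutant *elt-2* was 7.11 and 4.86 FPKM at Day 0, 2.52 FPKM at Day 7 and 1.41 FPKM at Day 10. Germline and oocyte markers, 6 genes, went from between 1462 and 1919 FPKM at Day 0 to between 557 and 852 FPKM later. Body wall muscle markers, 4 genes, summed to 406 and 417 FPKM in *spe-9* and 537 and 557 FPKM in the mutant at Day 0, then to 28.5 FPKM in *spe-9* and 35.2 FPKM in the mutant at Day 7 and 56.5 FPKM at Day 10. Pharynx markers, 5 genes, summed to 45.8 and 56.3 FPKM in *spe-9* and 62.4 and 79.7 FPKM in the mutant at Day 0 and to 43.7, 56.9 and 57.4 FPKM in the same later libraries. Neuronal markers, 5 genes, went from between 962 and 1023 FPKM at Day 0 to between 1362 and 1612 FPKM later. The part of these shifts in the results was not tested, and in whole animals fewer cells of a type and less RNA per cell cannot be told apart. In the Day 7 mutant library, 142 genes of at least 200 bases were listed at 0 although they had at least 10 FPKM in each of the other libraries, and no other library held such a gene. A value of 0 in that library is therefore given only as listed. None of the *lys* genes apart from *lys-9* was at 0 there, and no expressed neighbour within 10 kb of those genes was at 0 either (*lys-7* has no such neighbour).

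The oligonucleotides the study designed for its qRT-PCR of *lys-7* are shown because they belong to the member with the widest gap in FPKM between the strains at Day 0. Both are given from 5′ to 3′ in lower case, and they are 23 and 20 bases long.
lys-7 left primer: tgcttacgccttggatatttatg
lys-7 right primer: ttgtcctgctgggttgtatg

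Levels are given as FPKM, the fragments counted on a transcript scaled to its length and to the reads of the library, so that genes can be set beside each other. On the WS220 genome, 6 of the 10 genes lie in a pair of tight clusters. *lys-1* (chrV:10277883-10278973), *lys-2* (chrV:10280343-10281419) and *lys-3* (chrV:10282190-10283419) lie within 5537 bases, and *lys-4* (chrIV:11621473-11623075), *lys-5* (chrIV:11624273-11625551) and *lys-6* (chrIV:11626939-11627912) within 6440 bases. The other members lie apart, with *lys-7* at chrV:3481478-3482596, *lys-8* at chrII:5586162-5587526, *lys-9* at chrI:12454843-12455816 and *lys-10* at chrIV:8332813-8333505. *lys-8* is on the same chromosome as *mir-60* but 741 kb away. The *lys-10* transcript of 693 bases is as long as its genomic span, so it is listed as a single exon. The transcripts of the family are 645 to 906 bases long.

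In young *spe-9* adults, *lys-7* was the lysozyme gene with the highest level, at 317 FPKM in replicate 1 and 255 FPKM in replicate 2. It was followed by *lys-8* (258 and 244 FPKM), *lys-4* (279 and 200.2 FPKM) and *lys-1* (240.0 and 189 FPKM). The ranges of these 4 genes overlap from each to the next, so their order is only partly resolved. Those of *lys-7* and *lys-8* lie wholly above that of *lys-1*. *lys-2* came lower, at 110 and 85.9 FPKM, and the remaining members were far below it. *lys-10* had 10.2 and 9.38 FPKM and *lys-6* had 6.95 and 5.74 FPKM, while *lys-3* (3.55 and 2.42 FPKM) and *lys-5* (3.47 and 2.48 FPKM) overlapped. *lys-9* was hardly detected, with 4 reads in replicate 1 and a listed 0 in replicate 2.

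In young mutant adults *lys-7* and *lys-10* had other places in this order. *lys-7* stood below *lys-2* and *lys-10* stood below every member except *lys-9*. The highest level was shared by *lys-1* (274 and 195 FPKM), *lys-4* (271 and 164 FPKM) and *lys-8* (215 FPKM in both), whose ranges overlap. *lys-2* followed with 114 and 81.8 FPKM, then *lys-7* with 53.1 and 45.9 FPKM. *lys-3* (5.40 and 2.55 FPKM), *lys-5* (2.93 and 3.17 FPKM) and *lys-6* (2.95 and 2.26 FPKM) were not separable. *lys-10* had 0.633 and 0.277 FPKM, and *lys-9* had 2 reads in each library.

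**Figure D1:**
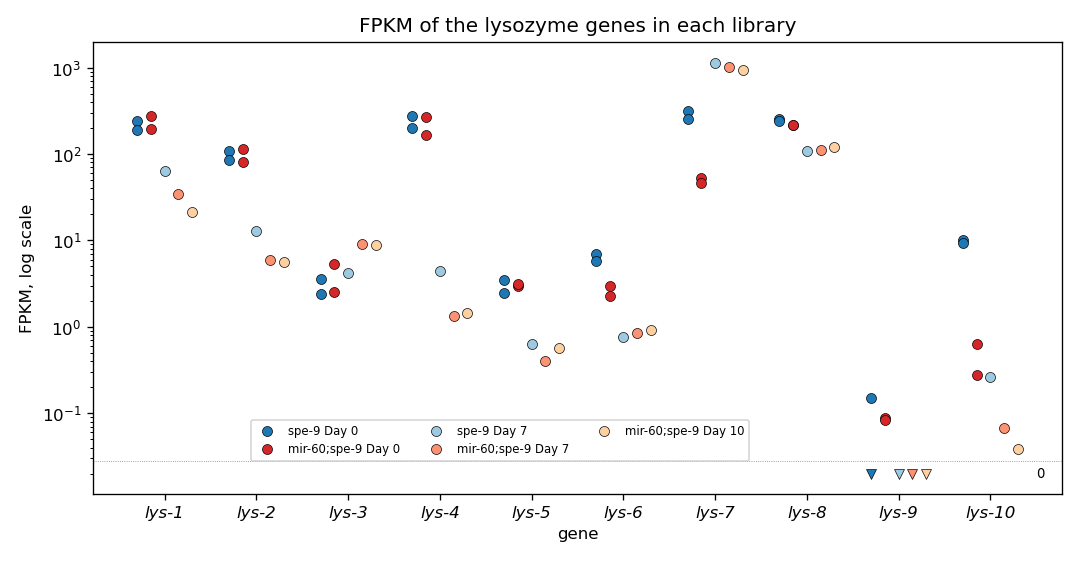
FPKM (log axis) of each of the 10 lysozyme genes in each of the 7 libraries, with 1 point per library, coloured by strain and day. Triangles on the lowest line mark values listed at 0. The Day 0 points of *lys-7* and *lys-10* are apart between the strains, whereas those of *lys-1*, *lys-2*, *lys-3*, *lys-4* and *lys-5* overlap.

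The first comparison asked which lysozyme genes differed between the strains at Day 0, before any paraquat. *lys-7* and *lys-10* were lower in the mutant, and no member was called higher. *lys-7* averaged 286 ± 44.1 FPKM (SD, n = 2) in *spe-9* and 49.5 ± 5.07 FPKM (SD, n = 2) in the mutant, a fitted 5.71-fold decrease. *lys-10* averaged 9.77 ± 0.551 FPKM (SD, n = 2) in *spe-9* and 0.455 ± 0.252 FPKM (SD, n = 2) in the mutant, which is 21.5-fold lower as a ratio of means. The groups do not overlap for either gene. Over the 4 pairings of a *spe-9* with a mutant library, the ratio of FPKM was 4.80 to 6.91 for *lys-7* and 14.8 to 36.7 for *lys-10*.

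Fold changes were fitted on log2(FPKM + 0.5) with limma, 2 libraries against 2, over the 13068 genes with a mean of at least 1 FPKM at Day 0, and p-values were adjusted by the Benjamini-Hochberg method over all of them. The log2 fold change of *lys-7* was -2.51 (SE 0.144, limma adjusted p = 0.0251). For *lys-10* it was -3.45 (SE 0.263, limma adjusted p = 0.0381), which is a 10.9-fold decrease on that scale. The added 0.5 FPKM is about as large as the mutant level of *lys-10* and makes that fold smaller than the ratio of means. *lys-10* also passed the filter only through *spe-9*, as both mutant libraries were under 1 FPKM. Its call and its part in the count of lower members thus depend on the group where it was high. Of the 9 members tested, 2 were called lower at an adjusted p under 0.05, against 0.184% of all genes tested, and 0 were called higher, against 0.559%. At an unadjusted p under 0.05, the counts were 4 lower, against 4.3% of all genes, and 0 higher, against 10.7%. Over all genes, 24 were called lower and 73 higher, or 48 and 87 with median centring and 53 and 85 with quantile normalization. The median log2 fold change was -0.16 over the 9 members and 0.01 over all genes. The sign of the median of the members depended on the library left out, at 0.08 without *spe-9* replicate 1 and -0.26 without *spe-9* replicate 2. Neither call was stable to every choice: both were lost without the filter on low FPKM, without the variance trend, and when any 1 of the 4 libraries was left out. The direction of both genes held in each of these.

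*lys-6*, in the cluster on chromosome IV, was also lower in both mutant libraries. Its fitted log2 fold change was -1.14 (SE 0.196, limma adjusted p = 0.125), a 2.21-fold lower level that did not pass the threshold, and the strains did not overlap. *lys-6* and its neighbour *lys-5* held parts of a read in 5 of the 7 libraries while the sum of both was whole in 7 of 7, within 0.05 of a read. Some reads were thus divided between these genes, and the level of each is uncertain. *lys-8*, which is known to respond to the TGF-beta-like ligand DBL-1, was 251 ± 9.22 FPKM (SD, n = 2) in *spe-9* and 215 ± 0.0120 FPKM (SD, n = 2) in the mutant. This 1.17-fold lower level had the same direction in all 4 pairings but did not pass (log2 fold change -0.22, SE 0.0597, limma adjusted p = 0.232).

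For the remaining 5 tested members the strains overlapped. The log2 fold change was 0.12 for *lys-1* (95% interval -0.48 to 0.72), -0.00 for *lys-2* (-0.61 to 0.60) and 0.30 for *lys-3* (-0.82 to 1.43). It was -0.16 for *lys-4* (-1.02 to 0.70) and 0.04 for *lys-5* (-0.56 to 0.65). The intervals of *lys-3* and *lys-4* reach past 2-fold, so a change of that size in them was not excluded by this fit. With a term for the replicate number added, the intervals were -0.28 to 0.89 for *lys-3* and -0.42 to 0.10 for *lys-4*. The labels do not say that libraries of the same number belong together. In both strains, replicate 1 was above replicate 2 for *lys-1*, *lys-2*, *lys-3* and *lys-4*. For *lys-4* the offset on the log2 scale was 0.48 in *spe-9* and 0.72 in the mutant, where the medians over all genes were 0.08 and 0.03. The spread between replicates thus exceeded the strain difference for *lys-1*, *lys-2*, *lys-3* and *lys-4*. Replicate 1 was also above replicate 2 in *spe-9* and in the mutant for *lys-6* (0.25 and 0.32), *lys-7* (0.32 and 0.21) and *lys-10* (0.11 and 0.54). There the offsets were smaller than the strain difference.

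**Figure D2:**
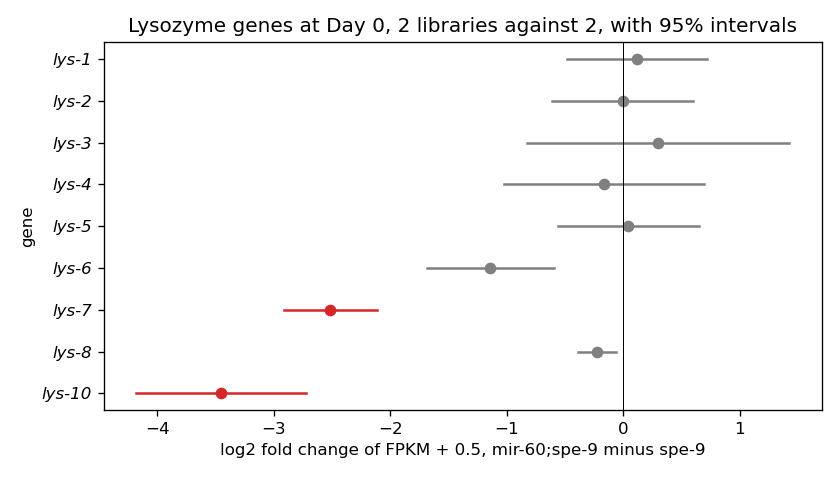
Log2 fold change of FPKM + 0.5 at Day 0, mutant minus *spe-9* (x axis), for the 9 lysozyme genes tested by limma (y axis), with 2 libraries per strain. Points are fitted values and lines 95% intervals, and red marks an adjusted p under 0.05, which only *lys-7* (-2.51) and *lys-10* (-3.45) reached.

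The next question was whether *lys-7* and *lys-10* stayed low in the mutant at later ages. *lys-7* did not. It was 1136 FPKM in *spe-9* and 1019 FPKM in the mutant at Day 7, and 938 FPKM in the mutant at Day 10. All later libraries stood above all of Day 0, and the Day 7 level of *spe-9* was 1.12 times that of the mutant, outside the 4.80 to 6.91 of the Day 0 pairings. Against the Day 0 mean of its own strain, the Day 7 level was 3.97-fold higher in *spe-9* and 20.6-fold higher in the mutant, and the Day 10 level was 19.0-fold higher. With 1 library at each later age, neither these ratios nor their difference between strains was tested. Among all gene symbols ordered by FPKM, *lys-7* moved from rank 765 and 896 in *spe-9* and 3923 and 4395 in the mutant at Day 0 to rank 264 and 290 at Day 7 and 352 at Day 10.

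*lys-10* followed the opposite course. It was 0.261 FPKM in *spe-9* and 0.0670 FPKM in the mutant at Day 7 and 0.0385 FPKM in the mutant at Day 10. The steps of the deposited values show how few reads this is: *lys-10* had 279 and 244 reads in the *spe-9* libraries of Day 0 and 15 and 7 in those of the mutant, then 7 in *spe-9* and 2 in the mutant at Day 7 and 1 at Day 10. The mutant level stayed low, with both later libraries below both of its Day 0 libraries. The Day 7 *spe-9* level of 0.261 FPKM was just below young mutant replicate 2 (0.277 FPKM) and further below replicate 1 (0.633 FPKM). Scaled to depth, the Day 7 *spe-9* library had 0.0257 of the level of Day 0 replicate 1 (95% counting interval 0.0103 to 0.0537) and 0.0279 of that of replicate 2 (0.0111 to 0.0583). In the mutant, the Day 7 library had 0.106 of Day 0 replicate 1 (0.0117 to 0.455) and 0.242 of replicate 2 (0.0245 to 1.27). For the Day 10 library these were 0.0609 (0.00145 to 0.396) and 0.139 (0.00309 to 1.08). A further decrease in the mutant thus exceeded counting error against replicate 1 only. At Day 7, the mutant had 0.256 of the *spe-9* level, with an interval of 0.0260 to 1.35, so a strain difference was not detectable at this depth. The Day 10 library had 0.575 of the Day 7 level of the mutant, with an interval of 0.00975 to 11.0. These intervals are exact conditional ones and cover counting error only.

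**Figure D3:**
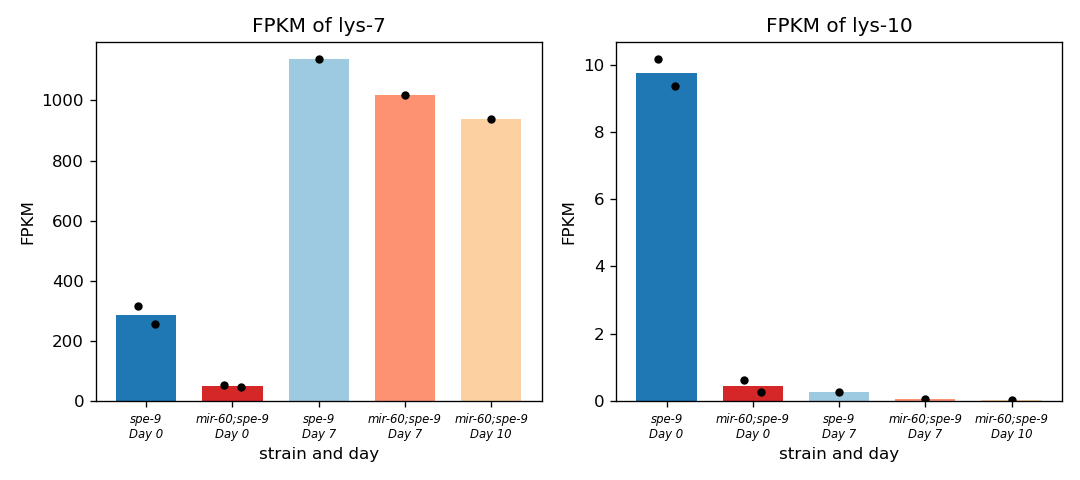
FPKM of *lys-7* (left) and *lys-10* (right) by strain and day, where bars are means and points are single libraries (2 at Day 0, 1 later). *lys-7* reached 938 to 1136 FPKM in the later libraries of both strains, while *lys-10* was under 0.3 FPKM in them.

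Most other members were lower at the later ages than at Day 0. A member was counted when it differed from the Day 0 mean by over 2-fold on log2(FPKM + 0.5) and lay outside both Day 0 libraries. Between Day 0 and Day 7 in *spe-9*, 7 of the 9 members with a mean of at least 1 FPKM over the 7 libraries were lower and 1 was higher, where 11.4% and 21.4% of all 13745 such genes were. In the mutant, 5 were lower and 2 higher at Day 7, against 14.3% and 19.2%, and the same counts were found at Day 10, against 21.8% and 18.4%. *lys-5*, *lys-6* and *lys-10* were under 1 FPKM in every later library and passed the filter only through their Day 0 levels. They could thus hardly be counted as higher. All of them are among the lower members in *spe-9*, and *lys-5* and *lys-6* among those in the mutant. The comparisons of Day 7 and Day 10 in the mutant share their Day 0 libraries. The median log2 ratio of the 9 members was -1.72 in *spe-9* at Day 7 (0.11 over all genes). In the mutant it was -1.19 at Day 7 (0.03 over all genes) and -1.12 at Day 10 (-0.14 over all genes).

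The deepest decrease was that of *lys-4*. From 279 and 200.2 FPKM in young *spe-9* and 271 and 164 FPKM in the young mutant, it came to 4.44 FPKM in *spe-9* and 1.34 FPKM in the mutant at Day 7 and to 1.46 FPKM at Day 10. The Day 7 level was 53.9-fold below the Day 0 mean in *spe-9* and 162-fold below it in the mutant. Its cluster neighbours also came down from their lower levels. *lys-5* was at 0.639 FPKM in *spe-9* and 0.407 FPKM in the mutant at Day 7 and at 0.574 FPKM at Day 10. *lys-6* was at 0.768 and 0.856 FPKM at Day 7 and at 0.920 FPKM at Day 10, so that the gap between the strains seen at Day 0 was not seen at Day 7. The summed reads of *lys-5* and *lys-6*, which sharing between them does not affect, were 258 and 193 in *spe-9* and 126 and 124 in the mutant at Day 0, without scaling to depth, and 34 in both Day 7 libraries. The strains were thus apart at Day 0 in this sum too.

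The *lys-1* cluster was divided. *lys-1*, whose overexpression is known to raise resistance to *Serratia marcescens*, was 64.2 FPKM in *spe-9* and 34.1 FPKM in the mutant at Day 7 and 21.3 FPKM at Day 10. It was 3.34-fold below the Day 0 mean in *spe-9* and 6.88-fold below it in the mutant at Day 7. *lys-2* was 12.8 FPKM in *spe-9* and 5.94 FPKM in the mutant at Day 7 and 5.57 FPKM at Day 10. *lys-3*, in contrast, was 4.19 FPKM in *spe-9* at Day 7, within 2-fold of Day 0, and 9.15 and 8.96 FPKM in the mutant at Day 7 and Day 10. The mutant values are 2.30 and 2.25 times the Day 0 mean, in which replicate 1 at 5.40 FPKM weighs heavily. Against replicate 1 alone, the log2 ratio was 0.71 at Day 7 and 0.68 at Day 10, under 2-fold, so that 1 member instead of 2 was counted as higher.

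*lys-8* changed least among the highly expressed members. It was 108 FPKM in *spe-9* and 113 FPKM in the mutant at Day 7 and 122 FPKM at Day 10. This was 2.32-fold below the Day 0 mean in *spe-9* and 1.90-fold and 1.76-fold below it in the mutant. *lys-9* was listed at 0 in all later libraries. *lys-10* counted as lower in *spe-9* only, as its mutant level was already near the added 0.5 FPKM at Day 0. With 0.1 FPKM added instead, it was counted in the mutant too, and 6 members were lower there at Day 7 and at Day 10.

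**Figure D4:**
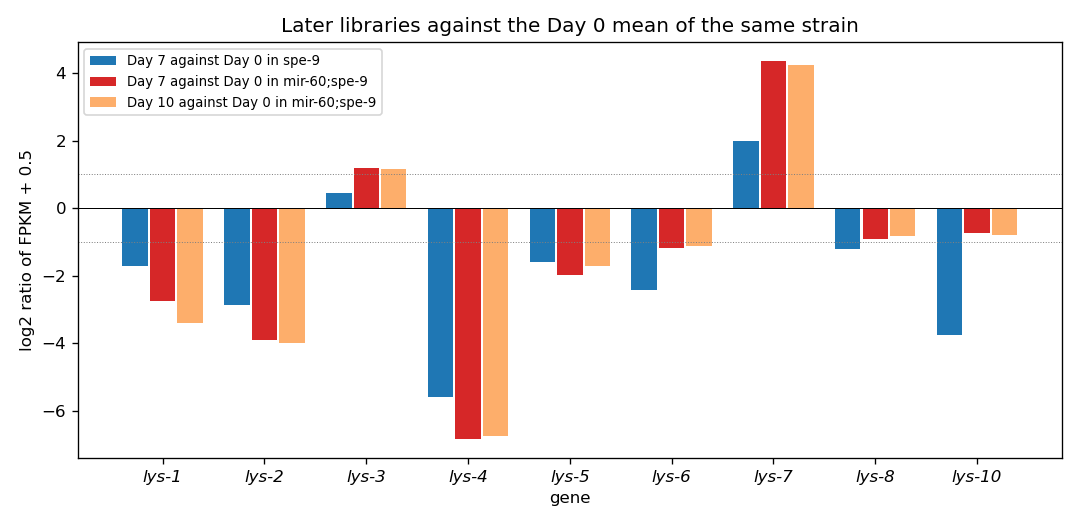
Log2 ratio of FPKM + 0.5 of each later library to the Day 0 mean of the same strain (y axis) for the 9 members that passed the filter (x axis). Bars are single ratios without an error, and dotted lines mark 2-fold. *lys-7* is above 2-fold in all 3 comparisons, *lys-4* has the deepest negative bars, and *lys-3* is positive in all 3 comparisons.

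Between the strains at Day 7, 2 members were over 2-fold lower in the mutant and 1 was higher. *lys-4* had a log2 ratio of -1.42 and *lys-2* of -1.04, while *lys-3* had 1.04. Over all genes, 5.57% were over 2-fold lower and 4.02% higher. Of the 765 lower genes, however, 532 were listed at 0 in the mutant library. Among the 12446 genes above 0 in all libraries, which were selected with the values in view, 1.29% were lower and 2.76% higher. The values of *lys-2* and *lys-3* lie close to the 2-fold line, and only *lys-4* passed it with 1 FPKM added in place of 0.5. *lys-1* was lower in the mutant by 1.89-fold. From Day 7 to Day 10 in the mutant, 0 members changed over 2-fold in either direction, against 5.35% of all genes lower and 4.53% higher. *lys-1* had a log2 ratio of -0.67 on log2(FPKM + 0.5). These pairs of single libraries were not tested.

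The family total varied less than its members. The summed FPKM of the 10 genes was 1228 and 995 in *spe-9* and 939 and 710.3 in the mutant at Day 0, then 1332 in *spe-9* and 1184 in the mutant at Day 7 and 1099 at Day 10. *lys-7* made up 25.9% and 25.6% of it in young *spe-9* and 5.66% and 6.46% in the young mutant. At the later ages its share was 85.3% in *spe-9*, 86.1% in the mutant at Day 7 and 85.4% at Day 10. Without *lys-7*, the sum went from between 664 and 910.2 FPKM in the Day 0 libraries to between 161 and 196 FPKM in the later ones.

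**Figure D5:**
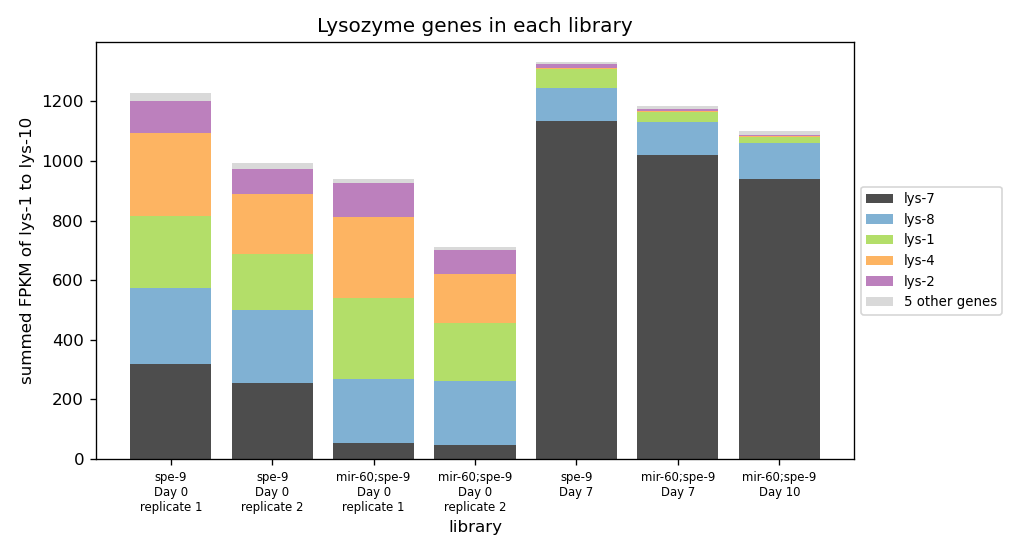
Summed FPKM of *lys-1* to *lys-10* (y axis) in each of the 7 libraries (x axis), with the 5 most abundant genes in colour and the 5 others together in light grey. *lys-7* (dark grey) is 5.66% to 25.9% of the sum at Day 0 and over 85% in the later libraries.

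The invertebrate-type lysozyme genes were read beside the family, with 3 of 6 tested at Day 0 and 0 called in either direction, against 0.559% of all genes called higher and 0.184% lower. At an unadjusted p under 0.05, 1 was higher and 1 lower, where 10.7% and 4.3% of all genes were. *ilys-5*, the most abundant, was also far lower at the later ages. It was 1243 and 1002 FPKM in *spe-9* and 1221 and 898 FPKM in the mutant at Day 0, and 9.56 FPKM in *spe-9* and 1.87 FPKM in the mutant at Day 7 and 3.05 FPKM at Day 10. *ilys-2* resembled *lys-10* at Day 0, with 3.60 and 4.78 FPKM in *spe-9* and 0.491 and 0.276 FPKM in the mutant. Its log2 fold change was -2.41 (SE 0.304, limma adjusted p = 0.0805), which did not pass. *ilys-2* too entered the test only through *spe-9*, as both mutant libraries were under 1 FPKM. At Day 7, *ilys-2* was 2.22 FPKM in *spe-9* and listed at 0 in the mutant, and at Day 10 it was 0.0896 FPKM. *ilys-4* was 14.95 and 12.3 FPKM in *spe-9* and 25.5 and 21.4 FPKM in the mutant at Day 0, and then between 40.9 and 53.1 FPKM in the later libraries.

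Genes known or proposed to act upstream of immune effectors in *C. elegans* were taken as a list of 25, all of which were tested. Among them are the insulin, p38 and TGF-beta-like pathways. At Day 0, 1 was called higher and 0 lower, against 0.559% and 0.184% of all genes. Without adjustment, 5 passed p under 0.05 as higher and 0 as lower, against 10.7% and 4.3%, and the median log2 fold change of the list was 0.14. The called gene was *zip-10*, the gene of a bZIP protein. The study had already reported it as raised by *mir-60* loss in these same libraries, so the call is not independent of its place in the list. The study proposes a role for it in innate immunity but describes its function in the worm as mostly unknown. *zip-10* was 11.4 and 9.34 FPKM in *spe-9* and 41.3 and 34.0 FPKM in the mutant, with a log2 fold change of 1.81 (SE 0.154, limma adjusted p = 0.0459). At the later ages it was 16.5 FPKM in *spe-9* and 24.5 FPKM in the mutant at Day 7 and 17.5 FPKM at Day 10. *elt-2*, the intestinal GATA factor, was 3.73 and 2.44 FPKM in *spe-9* and 7.11 and 4.86 FPKM in the mutant (log2 fold change 0.86, SE 0.289, limma adjusted p = 0.309). Its later levels were 1.86 FPKM in *spe-9* and 2.52 FPKM in the mutant at Day 7 and 1.41 FPKM at Day 10. *tir-1*, the adaptor of the p38 pathway, was 17.1 and 15.1 FPKM in *spe-9* and 21.8 and 20.7 FPKM in the mutant. It was 154 FPKM in *spe-9* and 227 FPKM in the mutant at Day 7 and 127 FPKM at Day 10. No other p38 pathway gene of the list was over 2-fold above Day 0 in a later library. *atf-7* was over 2-fold lower at Day 10. Of the 25, 1 was higher and 1 lower in *spe-9* at Day 7, against 21.4% and 11.4% of all genes. In the mutant, 1 was higher and 2 lower at Day 7 (19.2% and 14.3%), where *hlh-30*, listed at 0, was among the lower. At Day 10, 2 were higher and 4 lower (18.4% and 21.8%).

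The genes whose pattern was most like that of *lys-7* and *lys-10* were looked up over the 7 libraries among 1510 varying genes of at least 5 FPKM. Likeness was the Pearson r of log2(FPKM + 0.5), given as a description, since the libraries share strains and ages. *lys-7* and *lys-10* were not alike (r = -0.16). Nearest to *lys-7* were B0285.12 and *scl-2* (r = 0.97 each), F01D5.1 and F59A7.12 (0.96 each) and *comt-4* (0.94). *scl-2*, a gene of the SCP-like extracellular proteins, was 94.7 and 86.2 FPKM in *spe-9* and 24.1 and 32.0 FPKM in the mutant at Day 0. Like *lys-7*, it was high in all later libraries, at 404 FPKM in *spe-9* and 369 FPKM in the mutant at Day 7 and 672 FPKM at Day 10.

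Nearest to *lys-10* were *hrg-6* (r = 0.99), *ckb-2* (0.98), *ugt-26* (0.95), C14C6.5 (0.94) and T24B8.5 (0.92). *hrg-6*, named as a heme-responsive gene, was 58.4 and 41.3 FPKM in *spe-9* and 1.12 and 1.05 FPKM in the mutant at Day 0, and stood between 0.460 and 0.814 FPKM in the later libraries. As for *lys-10*, only young *spe-9* adults were high. T24B8.5, a widely used reporter gene of the p38 pathway, was 320 and 331 FPKM in young *spe-9* and 61.6 and 68.0 FPKM in the young mutant. Its later levels were 133 FPKM in *spe-9* at Day 7 and 64.2 and 40.8 FPKM in the mutant at Day 7 and Day 10.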

How the data were processed

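The authors deposited an FPKM value for every RefSeq transcript in each of the 7 libraries. Single-end reads of 100 bases from poly(A)-selected, stranded libraries were aligned by the authors with TopHat 2.1.0 and Bowtie 2.1.0 to WS220, and Cufflinks 2.2.1 was run after the 2 sequencing runs of each library were merged, so runs are not replicates. The deposited length column gave transcript lengths in bases. Groups, by strain and day, follow the sample labels.

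FPKM were summed per gene, and log2(FPKM + 0.5) was fitted in R 4.3.3 with limma 3.58.1 (variance trend, 2 libraries against 2, no further scaling), a procedure tested on simulated data. The simulated noise was independent between libraries, so offsets shared by libraries of the same replicate number were not covered. The prior gave 2.00 degrees of freedom. An exact permutation test of 2 against 2 cannot go below p = 0.333. FPKM of transcripts of 600 to 950 bases with up to 40 reads fell on whole multiples of a single read within 0.05 in 94.4% to 96.3% of values, which gave depths and reads. These reads served for *lys-10*, *lys-9* and the *lys-5* with *lys-6* sum, and no count model was run. Later libraries were compared as ratios only, without a test.

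All 10 members are named. Likeness took the 5 highest r among genes with a mean of at least 5 FPKM, at least 200 bases and an SD of at least 1, and other listed genes could be named only when called at Day 0 or over 2-fold in a later comparison, at most 10, and not all of these are named. The members and lists were chosen with earlier results of these data known. Alternatives were the pseudocount (0.1, 1), the filter (none, 10 FPKM), median centring, quantile normalization, the highest transcript, genes of at least 200 bases, a block for the replicate number, no variance trend, and each Day 0 library left out. The *C. elegans* annotation at hand was of another build, so all coordinates are those deposited.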

Additional observations from a re-analysis of the deposited data

Results flagged for a closer look

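None of the *lys* genes moved in opposite directions with age in the 2 strains, but 4 genes of the accompanying lists did between Day 0 and Day 7, each Day 7 library lying outside both Day 0 libraries of its strain. The difference between strains was not tested for any of them, since each later group is a single library. For *ilys-3* the *spe-9* log2 ratio exceeded that of the mutant by 5.33, from 0.593 and 1.16 FPKM at Day 0 to 26.0 FPKM at Day 7 in *spe-9* and from 0.589 and 0.460 FPKM to a listed 0 in the mutant. For *hlh-30* the difference was 6.54, with 44.5 FPKM in *spe-9* and a listed 0 in the mutant at Day 7, although the mutant had 38.9 and 36.8 FPKM at Day 0 and 52.8 FPKM at Day 10. The only expressed neighbour of *hlh-30* within 10 kb was listed at 0 in the same library. That of *ilys-3*, *ilys-2*, was also listed at 0 there, but it was already low in the mutant. It had 0.491 and 0.276 FPKM at Day 0 and 0.0896 FPKM at Day 10 and counts as expressed only through *spe-9*, so its 0 is little below its other mutant levels. For *zip-10* the difference was 1.25, as *spe-9* was higher and the mutant lower at Day 7 than at Day 0. For *fshr-1* it was -0.79, from 8.41 and 8.78 FPKM to 6.44 FPKM in *spe-9* and from 9.61 and 9.53 FPKM to 12.8 FPKM in the mutant.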

How the results depend on the processing

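At Day 0 the log2 fold change of *lys-7* stayed at -2.51 but its limma adjusted p became 0.0582 without the filter on low FPKM and 0.0518 without the variance trend. That of *lys-10* stayed at -3.45 with adjusted p of 0.0874 and 0.0543. The count of members called lower was 0 in both settings, and 1 with at least 10 FPKM, where *lys-10* was not tested. With each Day 0 library left out in turn, the values were -2.67 to -2.36 for *lys-7* (adjusted p 0.115 to 0.209) and -3.72 to -3.18 for *lys-10* (0.0706 to 0.365), and 0 members were called in any of the 4 fits. Such fits have 1 residual degree of freedom and assume that the lone library varies like the other strain. Over all genes, 0 were called without either *spe-9* replicate 1 or 2, and 10 lower with 133 or 128 higher without mutant replicate 1 or 2. The same fits gave -0.13 to 0.36 for *lys-1*, -0.25 to 0.24 for *lys-2*, -0.18 to 0.78 for *lys-3*, -0.52 to 0.20 for *lys-4* and -0.16 to 0.25 for *lys-5*, so the sign of each depended on the library left out. Leaving out a library also lets the offset between replicates into the strain difference. Between libraries of the same replicate number, *lys-1* and *lys-3* were higher in the mutant each time, *lys-4* was lower each time, and *lys-2* and *lys-5* were mixed. *lys-2* also turned to 0.0128 with quantile normalization, and *lys-5* to -0.0439 with median centring and -0.24 with quantile normalization, where *lys-6* passed (adjusted p 0.0434). Counts over all genes that moved by over 1.5 times from 24 lower and 73 higher were 22 higher without the filter, 48 lower with median centring, 53 lower with quantile normalization, and 168 higher among genes of at least 200 bases. The cause was not tested.

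The labels share replicate numbers only. Libraries of the same number deviated together with a correlation of 0.076 over all genes and 0.347 over genes of at least 200 bases. With the replicate block, *lys-7* and *lys-10* remained at -2.51 and -3.45 with 2 members called, and 68 lower and 286 higher genes. With that block on genes of at least 200 bases, 4 members were called, *lys-6* (adjusted p 0.00999) and *lys-8* (0.0493) being added, with 259 lower and 1456 higher genes.

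At the later ages the counts of members over 2-fold in both directions together kept within 1.5 times, except that 1 instead of 3 differed between strains at Day 7 with a pseudocount of 1 (0 instead of 1 higher, 1 instead of 2 lower). By direction, 1 instead of 2 was higher in the mutant at Day 7 and at Day 10 without mutant Day 0 replicate 2, and 1 instead of 2 was lower between strains at Day 7 with median centring. Few reads limit *lys-9* and *lys-10*. The log2 ratio of *lys-10* between the mutant and *spe-9* at Day 7 was -0.43. It was -1.11 with a pseudocount of 0.1 and 0.82 with quantile normalization. Between Day 7 and Day 0 in the mutant it was -0.73, and -1.65 and 0.19 in those settings. The sign of both ratios thus depended on the processing.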
